A study of Mus musculus with 24 samples.

Results

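Trp53, the gene of the transcription factor p53, and 9 genes that p53 is known to induce were followed through bulk mRNA-seq of mouse hematopoietic stem and progenitor cells. The members were taken by symbol (Trp53, Cdkn1a, Mdm2, Ccng1, Bax, Bbc3, Phlda3, Zmat3, Sesn2 and Aen), which gives 10 of the 55376 genes counted in each of 24 libraries. The cells came from bone marrow of untreated male mice that were homozygous for TTPΔARE or were their wild-type (WT) littermates. TTPΔARE is a germline deletion of the AU-rich element from the 3′ untranslated region of Zfp36, the gene of tristetraprolin (TTP), so every cell of the animal carries it and not the sorted cells alone. The libraries fell into 6 groups: 4 of HSCs from young WT mice (Y-WT HSC), 4 from young TTPΔARE mice (Y-TTPΔARE HSC), 5 from middle-aged WT mice (M-WT HSC), 3 from middle-aged TTPΔARE mice (M-TTPΔARE HSC), and 4 each of young WT and young TTPΔARE MPP3 cells. HSCs were sorted as lineage-negative, Sca1-positive, c-Kit-positive cells that were CD34-, Flk2- and CD150+, and MPP3 are multipotent progenitors biased to granulocytes and macrophages.

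p53 is held at a low level in resting cells by MDM2, a ubiquitin ligase that is itself a p53 target, and accumulates after DNA damage or other stress. It then binds response elements near its target genes, whose products arrest the cell cycle, start apoptosis, or act in repair and metabolism. In HSCs p53 is known for its role in quiescence and in the response to irradiation. TTP binds AU-rich elements in 3′ untranslated regions and speeds the decay of those mRNAs, which is why members were also searched for its binding motif.

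Each library held 24261400 to 39934600 counts, and each member had at least 35 counts in every library. Zfp36 mRNA was higher in every TTPΔARE library than in every WT library of the same set, at 83.3 to 113 CPM, counts scaled to library size, against 33.1 to 72.6 CPM in young HSCs, 91.5 to 110.3 against 43.6 to 64.2 CPM in middle-aged HSCs, and 72.7 to 118 against 21.6 to 34.6 CPM in MPP3. All 8 HSC markers were detected in every group, with a summed level of 3123 to 4750 CPM in HSC libraries and 1526 to 2946 CPM in MPP3 libraries, and the 8 MPP3 and granulocyte-monocyte markers summed to 114 to 265 CPM in HSC and 442 to 2510 CPM in MPP3 libraries. Olfactory and vomeronasal receptor genes, which blood progenitors are not known to use, summed to 64.4 CPM in Y-WT HSC replicate 1 and to 598 to 1015 CPM in the other 3 Y-WT HSC libraries, so that replicate 1 stood apart in its group. Those 3 lay above every library of the other groups, whose highest sum was 482 CPM, and the M-WT HSC libraries held 42.7 to 209 CPM. Y-TTPΔARE HSC replicate 1 also lay low in its group, at 80.6 beside 335 to 395 CPM. A fit without Y-WT HSC replicate 1 therefore keeps the Y-WT HSC libraries with the highest sums. Y-TTPΔARE MPP3 replicate 4 stood apart in the members themselves, with the highest Trp53 level (397 CPM) and the lowest Mdm2 (65.8 CPM), Ccng1 (85.1 CPM), Sesn2 (15.1 CPM) and Zmat3 (1.22 CPM) levels of the 24 libraries. Several results that rest on either library are given with and without it, but not all. The Sesn2 and Trp53 differences between TTPΔARE cell types and the cell type interaction of Ccng1 are given only with Y-TTPΔARE MPP3 replicate 4. The labels do not say that the libraries of a group came from separate mice, so p-values measure only the spread between these samples. Exons of Cdkn1a overlap those of AC167363.2, a gene on the opposite strand, over 273 of 3553 bases, and the use of strand in the counting is not given in the sources used here. AC167363.2 is not among the genes counted. Exons of Bax overlap those of Gm45808, a gene on the same strand, over 192 of 1576 bases, and Gm45808 had 0 counts in every library.

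The p53 response element consists of 2 half-sites of 10 bases, and its best match without spacer was looked for in RefSeq promoter windows (GRCm38.p6), from 250 bases before to 50 bases after each annotated start. The element reads the same on both strands, and only stretches with the 4 fixed C and G bases of the half-site cores were scored. Of the members, 9 had at least 1 window, 13 windows in all. The best matches are shown because they place a p53-like element beside the start of Cdkn1a, which passed in 3 comparisons below, of Ccng1, which passed in 1, and of Aen and Bbc3, which passed in none. Capitals mark the 4-base core of each half-site.
Cdkn1a: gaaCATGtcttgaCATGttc
Ccng1: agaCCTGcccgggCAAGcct
Aen: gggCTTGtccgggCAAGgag
Bbc3: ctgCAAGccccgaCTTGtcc
The Cdkn1a match, at chr17:29090928-29090947 on the plus strand, began 51 bases before the upstream one of its annotated starts and matched 19 of 20 positions. The Ccng1 match, at chr11:40755462-40755481 on the minus strand, began 195 bases before the start and also matched 19 positions. A match this good was held by 0.067% of the 32851 windows. The Aen match (chr7:78895937-78895956, plus strand) and the Bbc3 match (chr7:16309486-16309505, plus strand) covered 17 positions, as did the best match of Trp53, and 1.38% of windows held one at least as good. In the remaining windows, including those of Mdm2, Bax, Sesn2 and Phlda3, the best match covered 11 to 15 positions. Elements with a spacer or outside these windows were not looked for, so a weak best match does not mean that a gene lacks an element.

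The heptamer TATTTAT, the core of the TTP motif, was counted in the longest annotated 3′ untranslated region of each gene (GENCODE M21). Mdm2 and Ccng1 held 1 copy each and the other 8 members held none, whereas 27.4% of 21175 genes held at least 1. These 2 sites are shown with 8 bases on either side, with the heptamer in capitals.
Mdm2: attgatgtTATTTATttgcaaat
Ccng1: tgaaaatgTATTTATtgcactaa
They lie at chr10:117688918-117688940 and chr11:40749080-40749102 (GRCm38, minus strand). Among genes with 3′ untranslated regions of about the same length, 40.6% held the heptamer for Mdm2 and 41.9% for Ccng1.

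Per kilobase of annotated exon, the mean level over the 24 libraries ran from 64.3 CPM for Trp53 (chr11:69580359-69591873, plus strand) to 0.317 CPM for Zmat3 (chr3:32334792-32366014, minus strand). Ccng1 (chr11:40748552-40755311, minus), which codes for cyclin G1, followed Trp53 at 40.7 CPM per kilobase. Bax (chr7:45461697-45466898, minus), which opens the mitochondrial outer membrane in apoptosis, stood at 28.0 and Mdm2 (chr10:117688875-117710758, minus) at 18.9 CPM per kilobase. Sesn2 (chr4:132492032-132510501, minus), a stress-induced inhibitor of mTORC1 signalling, Aen (chr7:78895854-78911209, plus), an apoptosis-enhancing nuclease, and Bbc3 (chr7:16308393-16318205, plus), the gene of the BH3-only protein PUMA, lay between 5.99 and 8.16 CPM per kilobase. Phlda3 (chr1:135766119-135769136, plus), an inhibitor of AKT signalling, and Cdkn1a (chr17:29090976-29100727, plus), the gene of the cyclin-dependent kinase inhibitor p21, were low at 2.45 and 2.36 CPM per kilobase. Zmat3, whose product is a zinc-finger RNA-binding protein, was the lowest. Counted over the longest transcript instead, Cdkn1a passed Phlda3 and Aen passed Sesn2, and the other 6 members kept their place.

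**Figure D1:**
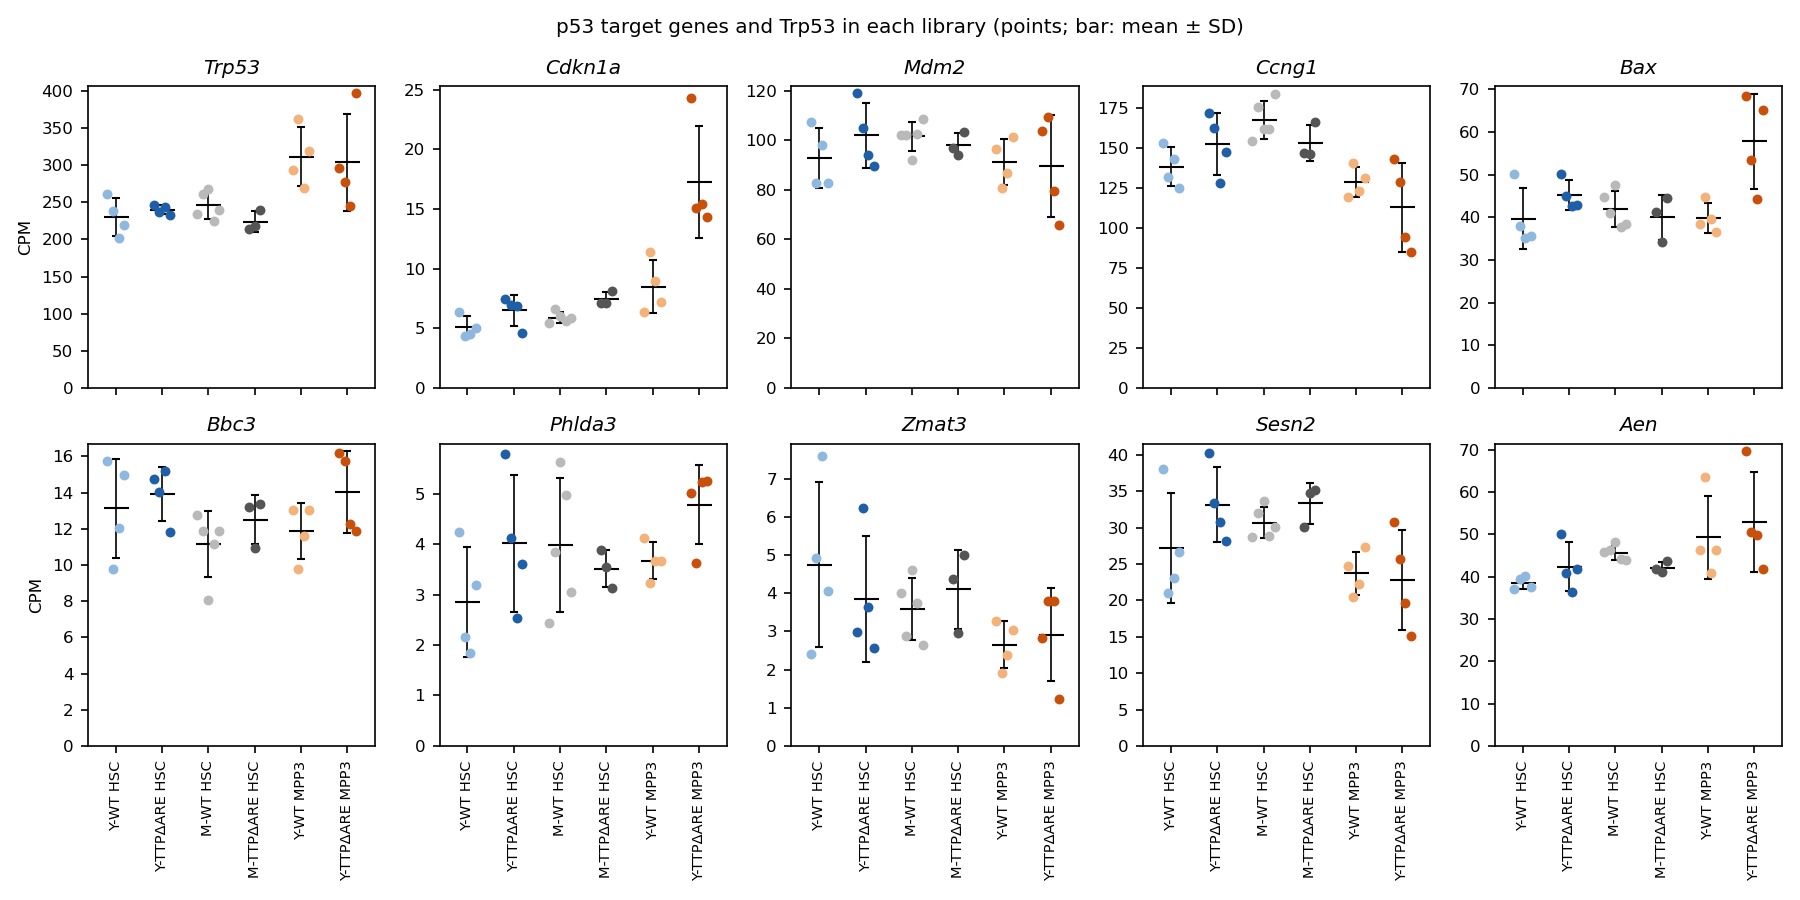
CPM of Trp53 and the 9 p53 target genes in each of the 24 libraries (points), with the mean and SD of each group, on linear axes that start at 0. The 4 Y-TTPΔARE MPP3 libraries lie at 14.3 to 24.3 CPM for Cdkn1a, above every other library.

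The first question was whether TTPΔARE changed p53 targets in MPP3 cells. Cdkn1a, which halts the cell cycle, rose in Y-TTPΔARE MPP3. The 4 Y-WT MPP3 libraries had 6.36, 11.4, 8.98 and 7.24 CPM of Cdkn1a. The 4 Y-TTPΔARE libraries had 24.3, 15.1, 15.4 and 14.3 CPM, so that the groups did not overlap and replicate 1 was highest by a wide margin. The log2 fold change was 1.06 ± 0.22 (SE), with a Benjamini-Hochberg adjusted p of 0.0417 in the quasi-likelihood test of edgeR over all 19023 genes tested. Cdkn1a was the 1 member of 10 that passed, where passing takes 3 things, an average log2 CPM over 1.5, a change of more than 1.2-fold and an adjusted p below 0.05. Over the 12856 genes above that level limit 2.54% passed, and 8.69% had groups that did not overlap, as 1 of the members did.

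The call for Cdkn1a in MPP3 lay close to the threshold, and it held in 7 of 16 alternatives. It ended with the summed receptor genes as a covariate (adjusted p = 0.0598). It also ended with the replicate number as a block (0.128), although same-numbered libraries correlated at only -0.0535 to 0.211 across the genotypes. Leaving out any 1 of the 4 Y-WT libraries or of Y-TTPΔARE replicates 1, 2 and 3 ended it, with adjusted p of up to 0.155, while the log2 fold change stayed positive and was lowest, at 0.86, without Y-TTPΔARE replicate 1. Without Y-TTPΔARE MPP3 replicate 4, the library that stands apart, it held at 1.124 ± 0.226 with an adjusted p of 0.0472.

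Bax was next in size of evidence. It had 38.3, 44.8, 39.7 and 36.5 CPM in Y-WT MPP3 and 68.5, 53.3, 44.3 and 65.1 CPM in Y-TTPΔARE MPP3, where replicate 3 fell within the WT range and the other 3 lay above it. Its log2 fold change of 0.56 ± 0.13 had an adjusted p of 0.0653 and did not pass. It passed with DESeq2 (adjusted p = 0.00383), with the likelihood ratio test of edgeR (0.0177), and when all 24 libraries entered the fit (0.00898), and without Y-TTPΔARE replicate 3 (0.0498).

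The other members of the set did not pass in MPP3. Of the further genes that act in apoptosis, Bbc3 differed by 0.27 ± 0.16 and Aen by 0.14 ± 0.17 on the log2 scale. Phlda3 differed by 0.41 ± 0.22, with 3 of 4 Y-TTPΔARE libraries at 5.02 to 5.24 CPM and replicate 2 at 3.62 CPM, inside the Y-WT range. Trp53 and Mdm2, the ends of the feedback loop, had differences of -0.0024 ± 0.14 and -0.00066 ± 0.16, whose signs turned under another scaling. Ccng1 differed by -0.16 ± 0.15 and Sesn2 by -0.03 ± 0.20. Zmat3 lay under the level limit, with 0.18 ± 0.39. The median over the members was 0.16, beside -0.0024 over all genes above the limit.

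**Figure D2:**
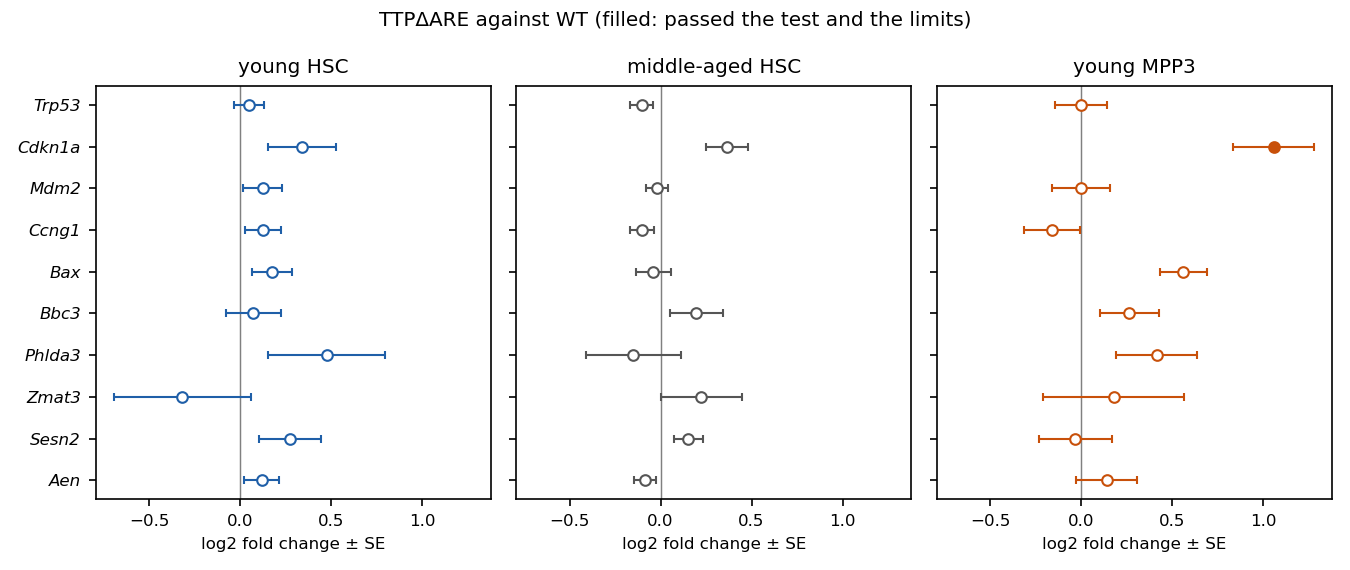
Log2 fold change of TTPΔARE against WT with its SE for each member in HSCs of each age and in MPP3 cells. The 1 filled point is Cdkn1a in MPP3 at 1.06, and open points did not pass the test and limits.

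Of 32 other p53 targets, listed by role, 31 were tested and 26 lay above the level limit in MPP3, and 2 rose while none fell. Of the 326 genes that passed in this contrast, 2.54% of all, 300 were higher in TTPΔARE. Pmaip1, the gene of the BH3-only protein NOXA, was at 2.67, 1.19, 0.357 and 2.54 CPM in Y-WT and at 16.1, 9.88, 7.59 and 11.2 CPM in Y-TTPΔARE MPP3. With a mean of 1.69 CPM in Y-WT, Pmaip1 cleared the level limit only through the Y-TTPΔARE libraries. In young HSCs it lay under that limit, at an average log2 CPM of 0.46. The log2 fold change of Pmaip1 in MPP3 was 2.75 ± 0.50 (adjusted p = 0.021, edgeR). Btg2, an antiproliferative gene that p53 also induces, was at 49.6, 36.9, 53.8 and 51.4 CPM in Y-WT and 106, 72.5, 72.9 and 78.4 CPM in Y-TTPΔARE MPP3. Its log2 fold change was 0.80 ± 0.17 (adjusted p = 0.0411). Neither gene had overlapping groups, and in both the highest library was Y-TTPΔARE replicate 1, as for Cdkn1a. None of the 17 regulators of p53 listed (Mdm4, Atm, Atr, Chek1, Chek2 and others) passed in either direction, with 14 above the limit and a median of -0.04.

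Markers of the sorted MPP3 cells themselves and of other cell types moved with the same contrast. The 8 MPP3 and granulocyte-monocyte markers summed to 442 to 1484 CPM in Y-WT and 1173 to 2510 CPM in Y-TTPΔARE MPP3, and Elane, a neutrophil elastase gene, rose by 2.53 ± 0.34 (adjusted p = 0.00363). The 5 macrophage markers summed to 30.1 to 144 CPM in Y-WT and 169 to 303 CPM in Y-TTPΔARE, and Adgre1 rose by 2.59 ± 0.32 (adjusted p = 0.00222). The 6 erythroid markers summed to 11.4 to 28.1 CPM in Y-WT and 49.97 to 121 CPM in Y-TTPΔARE MPP3, the 6 T cell markers to 33.2 to 46.9 and 58.3 to 73.5 CPM, and the 5 megakaryocyte markers to 140.0 to 169 and 80.1 to 97.6 CPM. These 3 lists and the macrophage list did not overlap between genotypes, and the granulocyte-monocyte list did. No marker of these lists was at 0 in all libraries of a group. In bulk samples fewer cells of a type and less RNA per cell cannot be told apart, and the part of these cells in the levels of Cdkn1a, Btg2 and Pmaip1 was not tested.

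**Figure D3:**
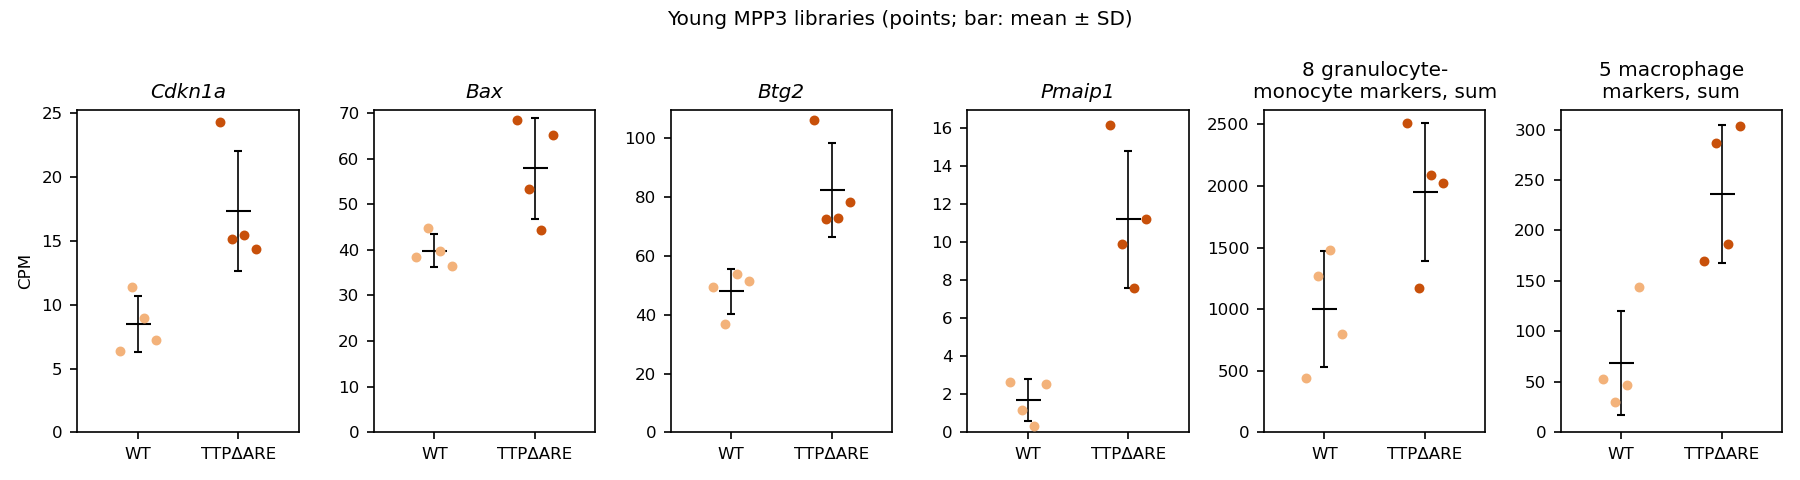
CPM in the 4 Y-WT and 4 Y-TTPΔARE MPP3 libraries (points, with mean and SD) for Cdkn1a, Bax, Btg2 and Pmaip1 and for the summed granulocyte-monocyte and macrophage markers, on axes that start at 0. The groups do not overlap for Cdkn1a, Btg2, Pmaip1 and the macrophage markers (30.1 to 144 against 169 to 303 CPM), and they overlap for Bax and the granulocyte-monocyte markers.

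In young HSCs none of the 10 members passed, where 0.0435% of 13786 genes did, and none passed with DESeq2 or the likelihood ratio test. Cdkn1a was at 6.38, 4.34, 4.52 and 5.06 CPM in Y-WT HSC and at 7.48, 6.98, 6.88 and 4.63 CPM in Y-TTPΔARE HSC. Y-TTPΔARE replicate 4 lay within the Y-WT range and the other 3 above it, and the log2 fold change of 0.34 ± 0.19 had an adjusted p of 0.713, the lowest among the members (edgeR). No member had an unadjusted p under 0.05. Of the members 9 had a positive difference and their median was 0.13, beside 0.03 over all genes above the level limit. No member had groups without overlap, as 5.19% of all genes did. Without Y-WT HSC replicate 1, Bax differed by 0.37 ± 0.09 and Sesn2 by 0.54 ± 0.14, with adjusted p of 0.107 and 0.111. Cdkn1a then differed by 0.53 ± 0.20, Phlda3 by 0.79 ± 0.32 and Trp53 by 0.18 ± 0.08 (adjusted p = 0.159, 0.175 and 0.188), and the median of all genes was then itself at 0.14. Erythroid markers summed to 15.9 to 21.9 CPM in Y-WT and 43.8 to 96.0 CPM in Y-TTPΔARE HSC, and megakaryocyte markers to 188 to 213 and 127 to 187 CPM. All 6 erythroid and all 6 T cell markers had a positive difference. Of 5 megakaryocyte markers 1 did, and of 5 endothelial markers none did. In these lists 1 erythroid marker passed and no other. The part of such cells in the levels of the members was not tested.

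In middle-aged HSCs the picture for Cdkn1a was tighter. The 5 M-WT libraries had 5.40, 6.59, 6.06, 5.60 and 5.84 CPM and the 3 M-TTPΔARE libraries had 7.15, 7.10 and 8.10 CPM, without overlap. The log2 fold change was 0.37 ± 0.12, with an unadjusted p of 0.0094 and an adjusted p of 0.157 (edgeR). No member passed, where 2.22% of 13413 genes did, and Cdkn1a was the 1 of 10 with an unadjusted p under 0.05. None passed with DESeq2 or the likelihood ratio test. Aen was the other of the 2 members whose groups did not overlap, with 43.9 to 48.2 CPM in M-WT and 41.0 to 43.6 CPM in M-TTPΔARE, and a difference of -0.09 ± 0.06. Across all genes 13.2% had groups without overlap. Sesn2 differed by 0.15 ± 0.08 and Trp53 by -0.10 ± 0.06, and the median of the members was -0.03, beside -0.03 over all genes. Of the 298 genes that passed 49.7% were higher in TTPΔARE, and 64.1% of those that passed under upper quartile scaling.

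Among the 32 other p53 targets, Sesn1 passed in middle-aged HSCs and in no other genotype contrast. Sesn1 codes for a sestrin like Sesn2. It was at 271, 276, 233, 263 and 257 CPM in M-WT and 291, 319 and 360.3 CPM in M-TTPΔARE, all 3 above the 5 WT libraries. Its log2 fold change was 0.34 ± 0.07 (adjusted p = 0.0284). It was the 1 of 29 above the level limit that passed, where 2.22% of all genes did. In young HSCs none of the 32 passed in either direction, with 28 above the limit. Megakaryocyte markers summed to 184 to 222 CPM in M-WT and 123 to 152 CPM in M-TTPΔARE HSC, and granulocyte-monocyte markers to 199.6 to 265 and 172 to 174 CPM. Gene by gene both lists were mixed. Of 5 megakaryocyte markers 2 had a positive difference and 1 passed as lower. Of 6 granulocyte-monocyte markers tested 3 had a positive difference and none passed. The part of such cells in the levels of Sesn1 and the members was not tested.

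Interaction terms tested whether the effect of TTPΔARE depended on age or on cell type. Between ages no member passed, where 0.0439% of 13667 genes did, and 2 members had an unadjusted p under 0.05. Aen and Ccng1 had the lowest p, with differences of effect of -0.25 ± 0.12 and -0.27 ± 0.13 (middle-aged minus young) and adjusted p of 0.325 and 0.326. The effect on Cdkn1a differed by -0.02 ± 0.22 between ages. Between cell types no member passed, where 0.839% of 13467 genes did, and 1 member had an unadjusted p under 0.05. DESeq2 and the likelihood ratio test gave no call in either interaction. The effect on Cdkn1a was larger in MPP3 than in HSC by 0.62 ± 0.30, with an unadjusted p of 0.0574 and an adjusted p of 0.491. The effect on Ccng1 differed by -0.40 ± 0.17 (adjusted p = 0.414). So the rise of Cdkn1a passed in MPP3 and not in HSC, and a difference between the cell types was not shown.

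Cell type was compared within each genotype. In WT mice Cdkn1a rose from HSC to MPP3 by 0.75 ± 0.22 (adjusted p = 0.0227, edgeR), and it was the 1 member that passed, where 31.6% of 13467 genes did. Of those genes 63.5% were higher in MPP3, and 44.6% under upper quartile scaling, which moved the median of all genes by -0.13. The ranges of the 2 groups, 4.34 to 6.38 and 6.36 to 11.4 CPM, met at their ends. Trp53 was at 261, 238, 202 and 219 CPM in Y-WT HSC and at 293, 363, 269.8 and 319 CPM in Y-WT MPP3, without overlap. Its difference of 0.45 ± 0.16 had an adjusted p of 0.055, and that of Aen, 0.37 ± 0.13, had 0.0516. For the cell type comparisons in either genotype, the share of all genes whose groups did not overlap is not given here. Trp53 passed in 16 of 24 alternatives, 13 of them with a library left out, and Aen in 6. Without Y-TTPΔARE MPP3 replicate 4, which enters this fit through the shared spread, both passed (0.00377 and 0.0361), and without Y-WT HSC replicate 1 Trp53 passed at 0.49 ± 0.12 (adjusted p = 0.00937). The call for Cdkn1a ended without Y-WT HSC replicates 2, 3 or 4 or Y-WT MPP3 replicates 2 or 3, at log2 fold changes of 0.61 to 0.75.

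In TTPΔARE mice 2 members passed between HSC and MPP3 in the unpaired fit, 1 in each direction, where 28.6% of genes passed. Cdkn1a rose by 1.37 ± 0.22 (adjusted p = 2.67e-04), with every MPP3 library above every HSC library. Ccng1 fell by 0.48 on the log2 scale, with an SE of 0.12 (adjusted p = 0.0112). Ccng1 was at 172, 163, 128 and 147 CPM in Y-TTPΔARE HSC and at 143, 129, 94.4 and 85.1 CPM in Y-TTPΔARE MPP3, and only MPP3 replicates 3 and 4 lay below all HSC libraries. Sesn2 differed by -0.59 ± 0.21 (adjusted p = 0.063). Without MPP3 replicate 4, Ccng1 did not pass, at -0.32 ± 0.14 (adjusted p = 0.174), whereas Cdkn1a did at 1.49 ± 0.25 (adjusted p = 5.47e-04). Without Y-WT HSC replicate 1, which enters through the shared spread and scaling, Trp53 and Bax passed too, at 0.35 ± 0.11 and 0.37 ± 0.11 (adjusted p = 0.0345 and 0.0253). With the replicate number as a block, which pairs the TTPΔARE libraries, Sesn2 fell by 0.61 on the log2 scale, with an SE of 0.13 (adjusted p = 0.00763), and 3 members passed.

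Over the 6 groups the mean of Cdkn1a ran from 5.08 ± 0.92 CPM in Y-WT HSC through 5.90 ± 0.46 in M-WT HSC, 6.49 ± 1.27 in Y-TTPΔARE HSC, 7.45 ± 0.56 in M-TTPΔARE HSC and 8.48 ± 2.20 in Y-WT MPP3 to 17.3 ± 4.70 CPM in Y-TTPΔARE MPP3 (SD). Each group's range overlapped that of the next in this order, except the last, which stood above all.

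The 12 proliferation genes, such as Mki67 and Ccnb2, all rose from HSC to MPP3 in both genotypes, with a median log2 fold change of 2.25 in WT and 1.64 in TTPΔARE. In the contrast of genotypes in MPP3 none of the 12 passed, 3 had a positive difference and the median was -0.33. Of the 32 other p53 targets, 7 rose and 4 fell from HSC to MPP3 in WT and 8 rose and 7 fell in TTPΔARE, of 28 above the limit, where 31.6% and 28.6% of all genes passed. Gtse1, a cell cycle gene that restrains p53, rose by 2.07 ± 0.23 in WT, and Pidd1, a death domain gene, by 1.36 ± 0.12. Plk2, a polo-like kinase gene, fell by 4.89 and Fas by 2.84 on the log2 scale, with SE of 0.80 and 0.34. Ephx1, an epoxide hydrolase gene, fell by 1.93 on the log2 scale, and Psrc1, a gene of the mitotic spindle, rose by 1.76 ± 0.28. Of the 14 regulators above the limit, 5 rose and none fell in WT against 2 and none in TTPΔARE, beside the same shares of all genes. Chek1 and Chek2, the checkpoint kinase genes, rose in WT by 1.44 ± 0.20 and 0.62 ± 0.12, and Atm, the kinase gene upstream of them, by 0.63 ± 0.14.

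**Figure D4:**
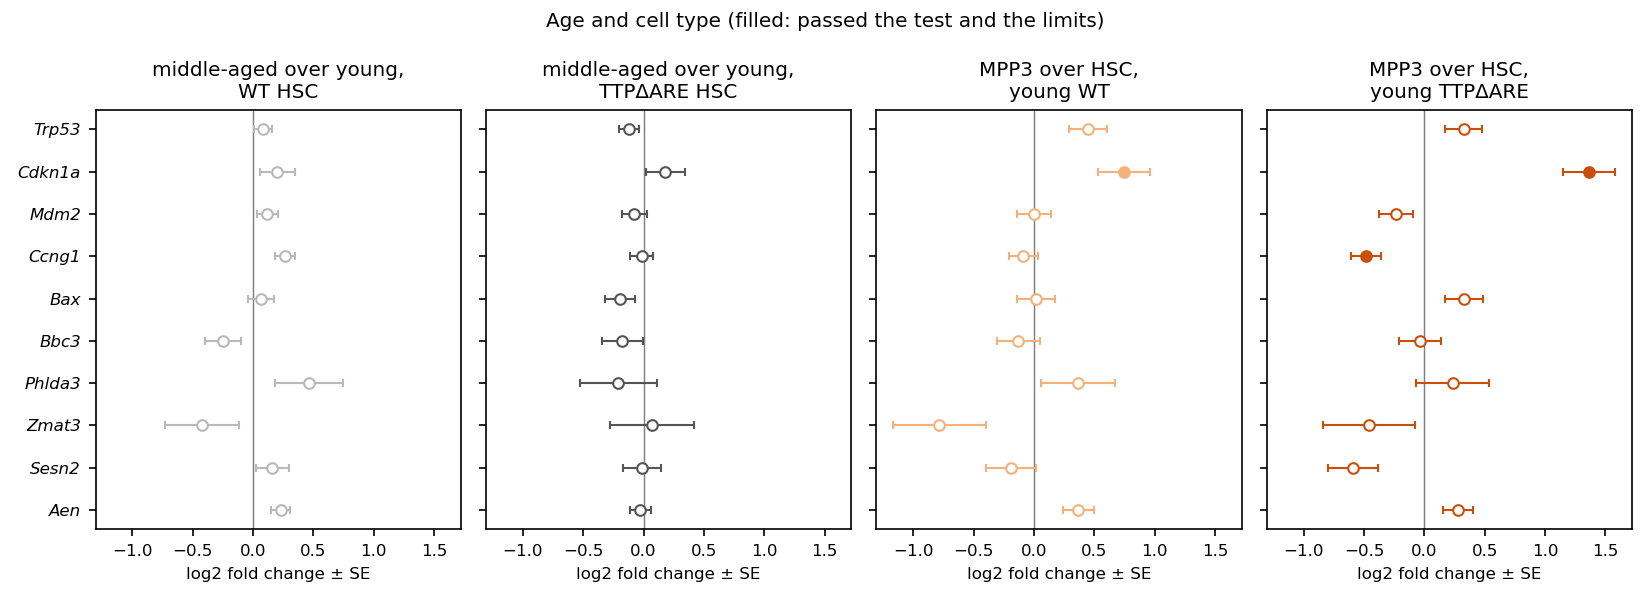
Log2 fold change with its SE for each member between middle-aged and young HSCs and between MPP3 and HSC, in WT and in TTPΔARE. Filled points passed the test and limits: Cdkn1a in both cell type contrasts (0.75 and 1.37) and Ccng1 in TTPΔARE (-0.48).

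With age, no member passed in WT HSCs, where 24.0% of 13667 genes did. Ccng1 and Aen came nearest. Ccng1 was at 153, 132, 143 and 125 CPM in Y-WT and 155, 176, 162, 162 and 184 CPM in M-WT HSC, without overlap. Its difference of 0.26 ± 0.08 had an adjusted p of 0.0307 but lay just under the fold limit. Aen was at 37.0, 39.4, 40.2 and 37.6 CPM in Y-WT and 45.9, 46.2, 48.2, 44.1 and 43.9 CPM in M-WT, also without overlap. Its 0.23 ± 0.08 had an adjusted p of 0.0372 and was under the fold limit too. The share of all genes whose groups did not overlap is not given here for the age comparisons. Of the 10 members 8 had a positive difference, with a median of 0.14 beside 0.09 over all genes, and those of Trp53 and Bax turned negative under upper quartile scaling. Under that scaling the median of all genes moved by -0.10, and 49.7% of the genes that passed were higher with age in place of 73.7%. DESeq2 and the likelihood ratio test gave no call among the members.

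The number of members that passed with age changed with most libraries left out. In 13 of 16 such fits at least 1 passed, with Ccng1 passing in 12 and Aen in 10 of the 16. Without Y-WT HSC replicate 1, 7 members passed as higher in middle-aged WT HSCs. That fit kept the Y-WT HSC libraries with receptor sums of 598 to 1015 CPM. In it 39.5% of all genes passed, 4708 of 5400 of them higher. The 7 were Cdkn1a, Mdm2, Ccng1, Bax, Phlda3, Sesn2 and Aen, with log2 fold changes from 0.27 ± 0.09 for Mdm2 to 0.79 ± 0.31 for Phlda3, beside a median of 0.22 over all genes. With any other library left out, at most 2 members passed. In TTPΔARE HSCs no member passed with age, where 12.1% of genes did, and the members' median was -0.05. There Cdkn1a differed by 0.18 ± 0.16, no member had an unadjusted p under 0.05, and DESeq2 and the likelihood ratio test gave no call.

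Of the 32 other p53 targets 29 lay above the limit with age. In WT 3 rose and 1 fell, where 24.0% of all genes passed, and in TTPΔARE 5 rose and 2 fell, where 12.1% did. Plk2 rose by 1.45 ± 0.26 in WT and 1.67 ± 0.28 in TTPΔARE, and Perp, a desmosome and apoptosis gene, by 1.00 ± 0.21 and 1.09 ± 0.23. The 2 contrasts use different libraries but share 1 estimate of the spread. Of the 14 regulators above the limit, 4 rose in WT and 2 fell in TTPΔARE, beside the same shares of all genes. Mdm4, the partner of MDM2, rose with age in WT by 0.49 ± 0.11, Trp53bp1 by 0.56 ± 0.07 and Ep300 by 0.44 ± 0.09, and in TTPΔARE Chek1 fell by 1.34 on the log2 scale, with an SE of 0.21. Proliferation genes fell with age, 9 of 12 in WT and 12 of 12 in TTPΔARE. Macrophage markers summed to 39.8 to 216 CPM in Y-WT and 13.1 to 27.6 CPM in M-WT HSC, and T cell markers to 31.1 to 56.6 and 13.1 to 19.2 CPM. Endothelial markers summed to 183 to 506 and 136 to 169.6 CPM, with 4 of 5 lower by the test, and granulocyte-monocyte markers to 122 to 151 and 199.6 to 265 CPM. The higher granulocyte-monocyte sum did not describe its list, in which only 1 of the 6 markers tested had a positive difference. Their median log2 fold change was -1.41, and 1 passed as higher and 1 as lower. The part of these cells in the age differences was not tested.

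**Figure D5:**
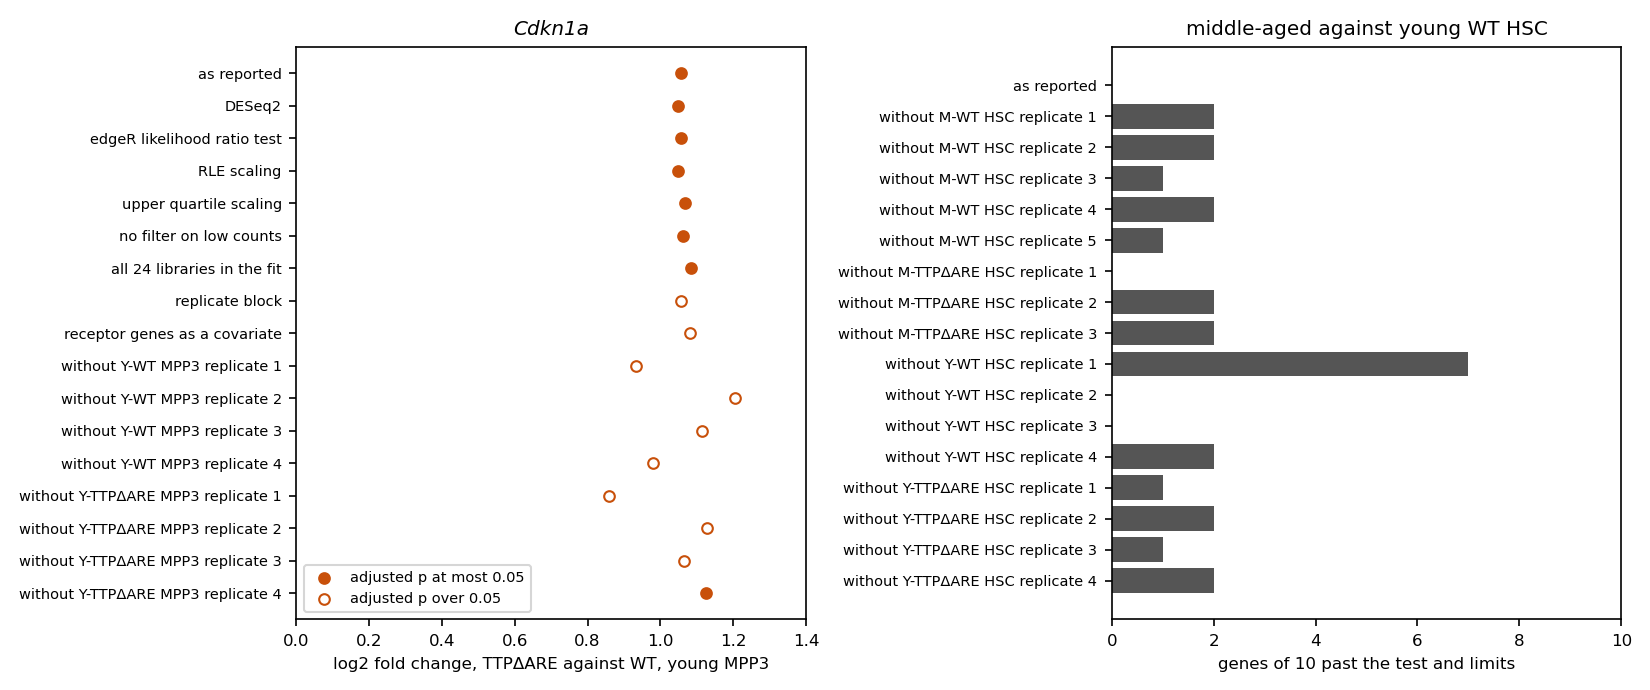
Left, log2 fold change of Cdkn1a between TTPΔARE and WT MPP3 as reported and under 16 other settings, filled where the adjusted p was under 0.05. Right, the number of the 10 members that passed between middle-aged and young WT HSCs as reported (0) and with each library left out in turn, with 7 without Y-WT HSC replicate 1.

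The pattern most like each member over the 24 libraries was looked for among 13589 genes above the level limit, by the Pearson correlation of log2 CPM. The libraries share groups and differ in depth, so these values describe likeness only. Trp53 was most like Tpi1, a glycolytic enzyme gene (r = 0.968), Cdkn1a most like Alas1, the first enzyme of heme synthesis (r = 0.908), Bax most like Bst2 (r = 0.907) and Aen most like Cs, the citrate synthase gene (r = 0.914). Mdm2 was most like Esco1 (r = 0.894), Ccng1 most like Llgl2 (r = 0.927), and Sesn2 most like Triobp (r = 0.917). Bbc3, Zmat3 and Phlda3 had weaker partners in Gm16712 (r = 0.853), Gm26826 (r = 0.769) and Tmem109 (r = 0.675). The members themselves were left out of this search, so none could be the nearest to another. Within groups, after the group means were taken away, Mdm2 moved most closely with Sesn2 (r = 0.81) and with Ccng1 (r = 0.79), and Trp53 with Bax (r = 0.69). Without Y-TTPΔARE MPP3 replicate 4 these values were 0.75, 0.72 and 0.70.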

How the data were processed

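The authors deposited 1 table of read counts per gene for each of 24 mRNA-seq libraries, as whole numbers with no normalization. Per the study's methods and the submitters' notes, reads were trimmed with Trim Galore! and cutadapt, aligned to mm10 with STAR on a GENCODE M22 index and counted per gene with featureCounts, whose strand and multimapping settings are not given in the sources used here. The study's methods and the labels name different cDNA kits. Totals ran from 24261400 to 39934600 counts per library. The members and gene lists were chosen with earlier results of these data known.

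Groups were taken from the sample titles. The study's text gives 1 Y-TTPΔARE MPP3 library fewer than the 4 used here, without naming which. Genes were kept with filterByExpr (minimum count 10, minimum total 15), scaled by TMM and tested on the deposited counts with the quasi-likelihood test of edgeR 4.0.16 in R 4.3.3 (limma 3.58.1), with Benjamini-Hochberg adjustment over all genes kept. To pass, a gene needed an average log2 CPM over 1.5, a change of more than 1.2-fold and an adjusted p below 0.05. CPM are counts per library scaled to a common size with the TMM factors. The SE is the absolute log2 fold change divided by the square root of F. Each genotype comparison used its own libraries, the age comparisons the 16 HSC libraries and the cell type comparisons the 16 young libraries. The procedure was also run on simulated data with known changes, whose outcome is not given here.

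All members were named. From each other list, up to 3 genes per comparison qualified for naming that passed and whose groups did not overlap, by size of change, and not all of these are printed, with markers where their level moved with a result. Alternatives were DESeq2 1.42.0, the likelihood ratio test, RLE and upper quartile scaling, no filter, other limits, all libraries in the fit, the replicate number as a block, receptor genes as a covariate, and each library left out. Same-numbered Y-TTPΔARE HSC and MPP3 libraries deviated together (r from 0.145 to 0.229 over 4 pairs). The numbers, taken from the titles, may therefore mark pairs there. The main fit of every contrast was nevertheless unpaired. The replicate number entered only as a block among the alternatives, which was run for all contrasts.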

Additional observations from a re-analysis of the deposited data

Results flagged for a closer look

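Of 50 sets of 4 or 5 libraries (a member in a group), 2 held 1 library far from the rest of its group, where chance gives about 1 in 20. Cdkn1a was at 24.3 CPM in Y-TTPΔARE MPP3 replicate 1 and at 14.3 to 15.4 CPM in the other 3. Phlda3 was at 3.62 CPM in Y-TTPΔARE MPP3 replicate 2 and at 5.02 to 5.24 CPM in the other 3. Without replicate 1 the log2 fold change of Cdkn1a between genotypes in MPP3 was 0.86, with an adjusted p of 0.155 (edgeR).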

How the results depend on the processing

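No member passed in either HSC genotype comparison, either interaction or the age comparison in TTPΔARE under any alternative run. The number of members that passed between genotypes in MPP3 was 2 with DESeq2, the likelihood ratio test or all 24 libraries, 0 with the replicate block or the receptor covariate, and 0 to 1 with a library left out. With age in WT it was 2 without the limits or without the filter, and 0 to 7 with a library left out. Between MPP3 and HSC in WT it was 0 at a fold change over 2 or with the covariate, 2 with DESeq2 or RLE, 3 with all libraries, and 0 to 3 with a library left out. In TTPΔARE it was 1 at a fold change over 2 or without the filter, 5 with DESeq2, 6 with all libraries, and 1 to 4 with a library left out. The cause of these changes was not tested.

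With the replicate block, Cdkn1a between genotypes in MPP3 kept its log2 fold change at 1.06 with an adjusted p of 0.128, and between MPP3 and HSC in WT had 0.0503, where Aen passed in its place. The block counts were 0 in MPP3 between genotypes, 1 between cell types in WT and 3 in TTPΔARE. Correlations of same-numbered libraries ran from -0.145 to 0.0691 in young HSCs, 0.000906 to 0.0149 in middle-aged HSCs, -0.0535 to 0.211 in MPP3 and 0.025 to 0.18 between the WT cell types.

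Signs turned in these log2 fold changes. Between genotypes, Zmat3 in young HSCs was 0.021 with the covariate. In middle-aged HSCs Mdm2 was 0.016 with upper quartile scaling, 0.028 with all libraries and 0.033 with the block, and Bax 0.0080 with all libraries and 0.019 with the covariate. In MPP3 Trp53 was 0.021 with upper quartile scaling, 0.0099 without the filter, 0.061 with all libraries and 0.025 with the covariate, and Mdm2 0.0031, 0.0032 and 0.014 under the first 3. With age in WT, upper quartile scaling gave -0.021 for Trp53 and -0.033 for Bax, and the covariate gave -0.035 for Trp53, -0.022 for Cdkn1a, -0.034 for Mdm2, -0.16 for Bax, 0.14 for Zmat3 and -0.15 for Sesn2. Between MPP3 and HSC in WT, Mdm2 and Bax were -0.050 and -0.024 with DESeq2, -0.050 and -0.023 with RLE, -0.13 and -0.10 with upper quartile scaling, -0.036 and -0.00884 without the filter, and -0.097 and -0.13 with the covariate.

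With a library left out, ranges that crossed 0 were, in young HSCs, -0.036 to 0.23 for Bbc3 and -0.59 to 0.056 for Zmat3. In middle-aged HSCs they were -0.11 to 0.048 for Bax, -0.29 to 0.0027 for Phlda3 and -0.057 to 0.0084 for Mdm2. In MPP3 they were -0.096 to 0.11 for Mdm2, -0.17 to 0.057 for Trp53, -0.20 to 0.11 for Sesn2, -0.0091 to 0.26 for Aen and -0.034 to 0.42 for Zmat3. Between cell types in WT they were -0.30 to 0.0020 for Sesn2, -0.061 to 0.063 for Mdm2 and -0.058 to 0.16 for Bax. Of 960 alternative values for single members, 825 kept their direction and side of the threshold and 64 turned in sign.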

Other observations

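The BCL2 family sets the threshold for the mitochondrial pathway on which Bax, Bbc3 and Pmaip1 act. None of its 13 listed genes passed between genotypes. The shares of all genes that did were 0.0435% in young HSCs, 2.22% in middle-aged HSCs and 2.54% in MPP3. From HSC to MPP3 in WT, 2 rose and 2 fell of 9 above the level limit, where 31.6% of all genes passed. Bcl2l11, the gene of BIM, rose by 1.05 ± 0.14 and Bid by 0.57 ± 0.11, and Bmf fell by 1.16 on the log2 scale. In TTPΔARE 2 rose and 1 fell of 9, where 28.6% of all genes passed, and Bcl2l1, the gene of the survival protein BCL-XL, fell by 1.07. With age in WT HSCs 2 rose and 1 fell of 9, where 24.0% of all genes passed, with Bcl2 at 0.35 ± 0.09 and Bcl2l1 at 0.30 ± 0.10.

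Of 10 genes of the ATF4 stress response, Vldlr passed in middle-aged HSCs as lower in TTPΔARE, by 2.72 on the log2 scale. There 2.22% of all genes passed. None of the 10 passed between genotypes in young HSCs or MPP3, where 0.0435% and 2.54% of all genes did. Vldlr was lower in those sets too. In young HSCs it differed by -1.57 ± 0.52 (adjusted p = 0.442, edgeR), with overlap. In MPP3 it was at 45.6 to 141 CPM in Y-WT and 26.7 to 37.4 CPM in Y-TTPΔARE. Trib3 rose with age by 0.68 ± 0.15 in WT and 0.80 ± 0.16 in TTPΔARE. Of the 8 genes of this list above the level limit, 2 rose with age in WT and 1 in TTPΔARE, where 24.0% and 12.1% of all genes passed. None of 10 immediate early and heat shock genes passed between genotypes, beside the same shares of all genes as above. Fos and Jun rose with age in TTPΔARE HSCs by 3.45 ± 0.82 and 1.54 ± 0.32, and Egr1 rose with age in WT HSCs by 0.91 ± 0.31. Of the 8 above the level limit, 2 rose with age in TTPΔARE and 1 in WT, where 12.1% and 24.0% of all genes passed.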
